A study of Mus musculus with 5 samples.

Results

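The genes described here are those that build the cornified envelope and complete the terminal differentiation of the epidermis, read in hair follicle stem cells of mouse back skin. They were chosen by name and not by level: every protein-coding gene of the deposited table whose symbol starts with Sprr, Lce or S100a, and 24 further genes named one by one, from Lor, Ivl and Flg to Alox12b and Aloxe3. The rule found 62 genes among 30840 features, of which 17431 were protein-coding. By mouse location in the GENCODE M21 annotation, 46 of the 62 lie on chromosome 3, which holds the epidermal differentiation complex, 6 lie on chromosome 7 and 3 on chromosome 18.

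The study asked what loss of Polycomb repressive complex 1 (PRC1) does to these stem cells. Polyadenylated RNA was sequenced from 3 PRC1 i2KO samples and 2 Control samples. The PRC1 i2KO mice carried the K15-CrePR1 transgene, a progesterone-receptor-controlled Cre recombinase driven by a Krt15 promoter, together with Ring1a-/- and Ring1b flox/flox. The Control mice were also Ring1a-/- and Ring1b flox/flox and lacked the transgene, so both groups were without Ring1a, and presence of the Cre transgene cannot be told apart from deletion of Ring1b. Mice of both groups received topical RU-486 at 1% daily for 10 days from postnatal day 50, and their back skin was collected at postnatal day 70. Each sample held 50000 cells gated as EpCAM positive, Sca1 negative, α6-integrin high and CD34 positive. Nothing in the labels ties a sample to an animal of its own, and the spread behind each p-value may be technical. The keratin promoter limits the deletion to cells that have used it, and every count below is of a whole sorted population: fewer cells of a type and less RNA per cell cannot be told apart.

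The cornified envelope is a protein shell laid down under the membrane of a keratinocyte as it leaves the living layers of the epidermis. Loricrin, involucrin, small proline-rich (SPRR) and late cornified envelope (LCE) proteins are cross-linked into it by transglutaminases, filaggrin bundles the keratins inside, lipoxygenases help to attach a lipid coat outside, and kallikrein proteases later cut the desmosomes so that the dead cells are shed. Bulge stem cells of the hair follicle do not normally build this envelope. PRC1, through RING1A and RING1B, attaches ubiquitin to histone H2A at genes that are kept silent.

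Libraries held between 11626006 counts in Control 3 and 43307694 counts in PRC1 i2KO 2. Expected counts were scaled with TMM factors to CPM, counts per 1000000 counts of a library. Levels of different genes are compared only as the deposited TPM, which divides by transcript length. Whole-gene counts of Rnf2, which encodes RING1B, were 39.9, 33.1 and 36.4 CPM in PRC1 i2KO 1, 2 and 3, against 27.7 and 37.5 CPM in Control 2 and 3. A whole-gene count does not test the deletion of floxed exons, so these values do not check the labels. Mitochondrial ribosomal RNA took 29.7%, 21.4% and 32.0% of counts in PRC1 i2KO 1, 2 and 3, against 16.7% and 22.6% in Control 2 and 3, and its part in the results below was not tested. The defining bulge keratin Krt15 stood at 4427, 5076 and 3418 CPM in PRC1 i2KO samples and at 4269.9 and 4358 CPM in Control samples. Cd34, the surface marker used in the sort, stood at 298, 292 and 164 CPM in PRC1 i2KO samples, against 477 and 326 CPM in Control samples.

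Terminal differentiation genes were higher on average in PRC1 i2KO samples than in Control samples, but 1 library, PRC1 i2KO 2, carried most of that difference. Of the 62 genes, 49 had enough counts to be tested, and 42 of these had a log2 fold change above 0, where 50.4% of all 22181 tested genes did. The median log2 fold change was 0.82 over the 49 genes and 0.0053 over all tested genes. None of the 49 passed edgeR's quasi-likelihood test at a Benjamini-Hochberg adjusted p of 0.05 in either direction. The lowest adjusted p among them was 0.164, for Ly6d. In the same test 28 genes of the whole table were higher in PRC1 i2KO (0.126% of those tested) and 0 were lower (0.00%). At an unadjusted p under 0.05 the test gave 10 of the 49 higher and 1 lower, against 7.43% and 3.51% of all tested genes. DESeq2, run on the same counts without the filter on low counts, called 7 of the 62 genes higher and 0 lower, where it called 2.43% of all genes with a count higher and 0.532% lower. The 7 were Casp14, Krtdap, Ly6d, S100a13, S100a14, Sprr4 and Lce3c, and all 175 counts of Lce3c came from PRC1 i2KO 2. On log2(TPM + 1), limma called 0 of the 49, and 0.00902% of all tested genes higher and 0.00451% lower, with 4 of the 49 higher and 1 lower at an unadjusted p under 0.05.

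From the heights by library 3 patterns are described, and many of the 49 genes fit none of them. In 10 of the 49 genes (20.4%, against 14.6% of all tested genes) every PRC1 i2KO library lay above both Control libraries in CPM. These were Ly6d, Krtdap, Casp14, Klk5, Klk7, Sprr4, S100a11, S100a13, S100a14 and S100a16. In 13 genes (26.5%, against 8.81% of all tested genes) PRC1 i2KO 2 was the only PRC1 i2KO library above both Control libraries, Lor and Ivl among them. In 1 gene, S100a4, every PRC1 i2KO library lay below both Control libraries, where 15.3% of all tested genes did. Ly6d, Krtdap, Casp14, Sprr4, S100a11, S100a13, S100a14 and S100a4 are the 8 genes named for the smallest p. Groups that do not overlap are therefore no separate result for these 8, here or below. In TPM, where the median log2 difference of all tested genes was itself -0.19 on log2(TPM + 1), 6 of the 10 kept all 3 PRC1 i2KO libraries above both Control libraries (7.01% of all tested genes): Ly6d, Casp14, Klk5, Sprr4, S100a11 and S100a13. S100a4 and Aloxe3 were below both in TPM (23.0% of all tested genes). PRC1 i2KO 1 alone lay above both Control libraries for 1 gene, Calml3 (8.9% of all tested genes), and PRC1 i2KO 3 alone for 1 gene, S100a1 (8.48%). PRC1 i2KO 2 held the highest CPM of the 5 libraries in 32 of the 49 genes (65.3%, against 18.1% of all tested genes). PRC1 i2KO 1 held it in 6, PRC1 i2KO 3 in 6, Control 2 in 4 and Control 3 in 1, where the shares over all tested genes were 23.6%, 17.7%, 21.7% and 18.9%. The median shift of the 49 genes from the mean of the Control libraries, on log2(CPM + 1), was 0.18 in PRC1 i2KO 1, 1.12 in PRC1 i2KO 2 and 0.076 in PRC1 i2KO 3.

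**Figure D1:**
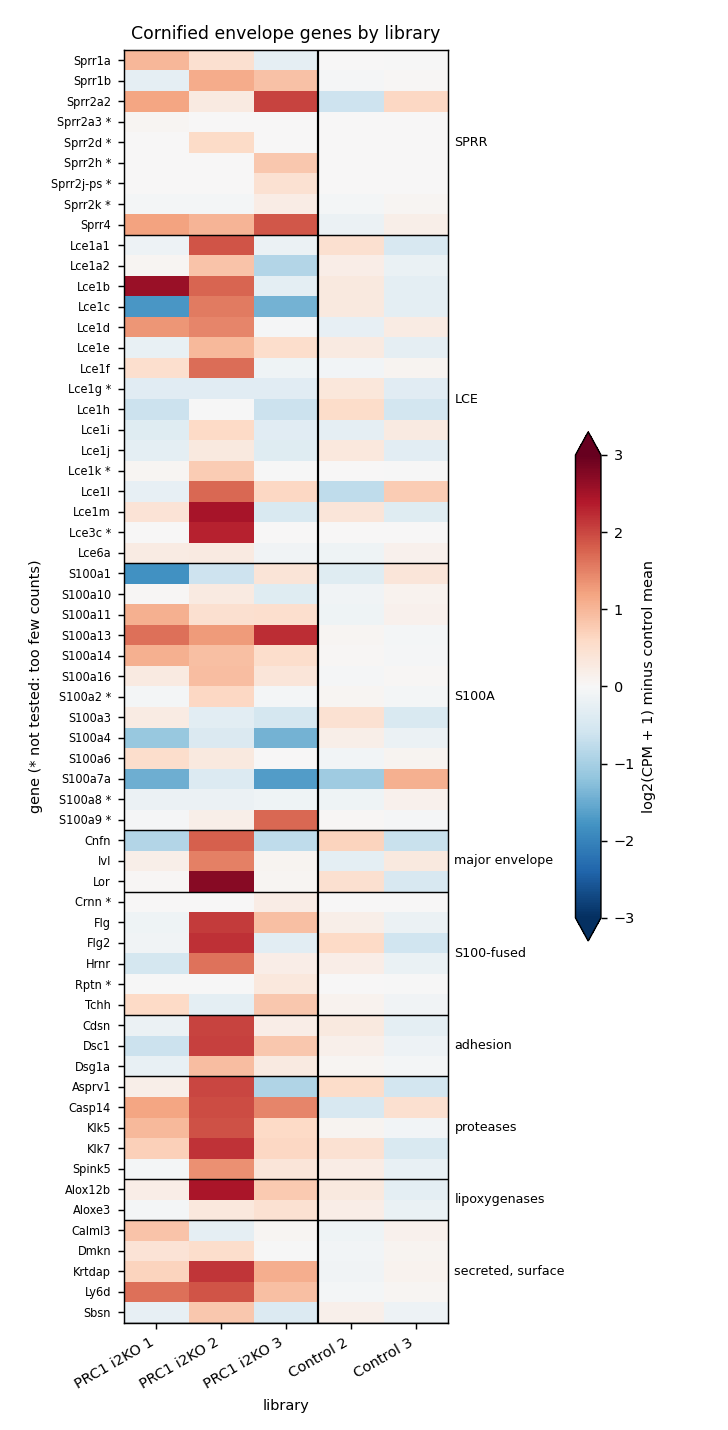
Level of all 62 genes in each library as log2(CPM + 1) minus the mean of the 2 Control libraries, ordered by role, with the 3 PRC1 i2KO libraries left of the line and the 2 Control libraries right of it; an asterisk marks the 13 genes with too few counts to test. PRC1 i2KO 2 is the highest library in 32 of the 49 tested genes, and in 13 genes it is the only PRC1 i2KO library above both Control libraries.

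The promoters of these genes differ in sequence from the average mouse promoter, and 5 are printed, from the 3 patterns and from Lce1m, the LCE gene with the most TPM. RefSeq promoter windows on GRCm38.p6, the 250 bases before a transcription start, were available for 51 of the 62 genes, which have 58 windows. The letters TGANTCA, which the AP-1 family of factors binds, occurred on either strand in 18 of the 58 windows (31.0%), against 6.75% of 32851 windows of the RefSeq table and 5.26% of the windows of tested genes. The letters TATAAA, the core of the TATA box, also occurred on either strand in 18 windows (31.0%), against 12.4% of all windows and 8.43% of the windows of tested genes. The 58 windows held a median of 1.5 CpG dinucleotides, against 6 in all windows, 13 in the windows of tested genes and 19 in 36 windows of 21 genes that edgeR called higher in PRC1 i2KO. TGANTCA was uneven over the roles, and the windows of the LCE genes, the proteases, Cdsn and Alox12b all lacked it. A match is a description of letters and not of a bound site. Windows of 1 gene can overlap, as do those of Dmkn that begin at 30763506 and 30763508. Windows of different genes can overlap too, as do those of S100a13 and S100a1 on opposite strands, so some CpG are counted for both. Each window was counted, so the shares are of windows and not of genes. Bases shortly after the start occurred in a GENCODE M21 transcript of the same gene for 49 of the 58 windows, and the rest were kept. In the lines below capitals mark TGANTCA and TATAAA, and each sequence runs 5′ to 3′ on the strand of its gene towards the start.
Lor, chr3:92083143-92083392, minus strand: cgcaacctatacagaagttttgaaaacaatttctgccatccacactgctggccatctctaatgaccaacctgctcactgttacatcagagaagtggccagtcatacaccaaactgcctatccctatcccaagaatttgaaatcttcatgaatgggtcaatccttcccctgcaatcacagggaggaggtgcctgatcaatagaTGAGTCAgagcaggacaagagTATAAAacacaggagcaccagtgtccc
Krtdap, chr7:30787655-30787904, plus strand: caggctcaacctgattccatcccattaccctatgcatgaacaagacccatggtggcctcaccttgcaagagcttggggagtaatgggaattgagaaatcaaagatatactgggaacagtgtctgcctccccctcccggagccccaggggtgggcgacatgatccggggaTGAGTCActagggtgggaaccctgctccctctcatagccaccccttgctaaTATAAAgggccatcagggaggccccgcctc
Lce1m, chr3:93019062-93019311, minus strand: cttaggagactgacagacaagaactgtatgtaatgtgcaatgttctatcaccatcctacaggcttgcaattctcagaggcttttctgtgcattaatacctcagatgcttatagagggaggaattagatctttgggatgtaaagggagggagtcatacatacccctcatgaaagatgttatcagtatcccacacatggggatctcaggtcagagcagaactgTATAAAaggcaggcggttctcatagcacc
S100a13, chr3:90514185-90514434, plus strand: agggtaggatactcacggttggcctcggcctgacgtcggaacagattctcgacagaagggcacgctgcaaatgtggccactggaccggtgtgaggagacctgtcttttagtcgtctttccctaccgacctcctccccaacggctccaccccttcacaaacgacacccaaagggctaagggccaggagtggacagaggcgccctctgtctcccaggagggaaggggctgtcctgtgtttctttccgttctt
S100a4, chr3:90603520-90603769, plus strand: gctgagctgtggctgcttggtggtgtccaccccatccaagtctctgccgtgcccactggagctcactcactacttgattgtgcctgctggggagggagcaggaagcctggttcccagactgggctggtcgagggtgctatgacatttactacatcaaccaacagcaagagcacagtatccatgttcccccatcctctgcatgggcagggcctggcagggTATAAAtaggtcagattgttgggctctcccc
Lor, above both Control libraries in PRC1 i2KO 2 alone, has TGANTCA beginning 48 bases and TATAAA 27 bases before its start. Krtdap, higher in all 3 PRC1 i2KO libraries in CPM, has the same pair at 81 and 30 bases. Lce1m and S100a4 have TATAAA alone, at 29 and 31 bases. Lce1m was highest in PRC1 i2KO 2, and S100a4 was lower in every PRC1 i2KO library. S100a13 has neither TGANTCA nor TATAAA and holds 13 CpG, the most of any of the 58 windows. Lor and Lce1m each hold 1 CpG, S100a4 holds 2 and Krtdap 4. A link between these letters and the library patterns was not tested.

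The major envelope precursors were Lor, Ivl and Cnfn. Lor encodes loricrin, the most abundant protein of the finished envelope, and its level was 21.5, 145 and 22.0 CPM in PRC1 i2KO 1, 2 and 3, against 29.7 and 15.0 CPM in Control 2 and 3. PRC1 i2KO 2 stood alone at 6.49 times the Control mean, and PRC1 i2KO 1 and 3 lay between the Control libraries. Its log2 fold change was 1.48 ± 0.807 (SE; edgeR adjusted p = 0.561), and it was -0.047 without PRC1 i2KO 2. Ivl encodes involucrin, an early scaffold of the envelope, and had 6.42, 17.5 and 5.88 CPM in PRC1 i2KO samples, against 4.34 and 6.98 CPM in Control samples. Again PRC1 i2KO 2 was high and the other PRC1 i2KO libraries lay within the Control range, with a log2 fold change of 0.82 (edgeR adjusted p = 0.680). Summed over the 3 genes, the TPM was 15.4, 126 and 16.9 in PRC1 i2KO samples, against 44.5 and 14.9 in Control samples.

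Of the 9 SPRR genes, whose products form flexible bridges between envelope proteins, 4 could be tested, and all 4 had a log2 fold change above 0, with a median of 1.94. Sprr4 had 2.84, 2.37 and 5.03 CPM in PRC1 i2KO samples, against 0.487 and 0.873 CPM in Control samples. The groups did not overlap, PRC1 i2KO 3 was the highest library, and the log2 fold change was 2.35 ± 0.806 (edgeR adjusted p = 0.330; DESeq2 0.0374). Sprr1a, the SPRR gene with the most TPM, had 85.6, 59.4 and 34.9 CPM in PRC1 i2KO samples, against 42.5 and 41.9 CPM in Control samples. Its groups overlapped, since PRC1 i2KO 3 was the lowest library of all, and the log2 fold change was 0.51 (edgeR adjusted p = 0.652). Here PRC1 i2KO 1 led, unlike in the major envelope precursors. The other 5 SPRR genes had at most 24 counts over all libraries, and 4 of these had counts in a single library. Sprr2h, one of them, had all 24 of its counts in PRC1 i2KO 3.

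Of the 16 LCE genes, small proteins added late to the envelope, 13 were tested, 11 had a log2 fold change above 0 and the median was 0.98. PRC1 i2KO 2 was the highest library in 10 of the 13 (76.9%, against 18.1% of all tested genes). In 0 of the 13 did every PRC1 i2KO library exceed both Control libraries, where 14.6% of all tested genes did. Lce1m, the LCE gene with the most TPM, had 16, 70.5 and 8.29 CPM in PRC1 i2KO samples, against 15.4 and 8.96 CPM in Control samples. PRC1 i2KO 2 stood at 5.79 times the Control mean while PRC1 i2KO 3 was the lowest library. The log2 fold change was 1.37 ± 0.789 (edgeR adjusted p = 0.586), and -0.014 without PRC1 i2KO 2. Lce1b departed from this pattern, with 16.4, 8.77 and 1.36 CPM in PRC1 i2KO samples, against 2.56 and 1.35 CPM in Control samples. PRC1 i2KO 1 was its highest library and PRC1 i2KO 3 lay at the lower Control level (log2 fold change 2.15, edgeR adjusted p = 0.451). In 12 of the 16 LCE genes the expected count was not whole in at least 1 library, which is a mark of reads shared with near-identical copies, so levels of single LCE genes are uncertain. Lce1m and Lce3c had whole counts in all 5 libraries. Klk5, Klk7, Dsc1, Aloxe3, Lce1b, Lce3c, Sprr2h, S100a1, S100a8, S100a9, S100a16 and Tchh are named here because of values already seen, and not by the rule that named the other genes.

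**Figure D2:**
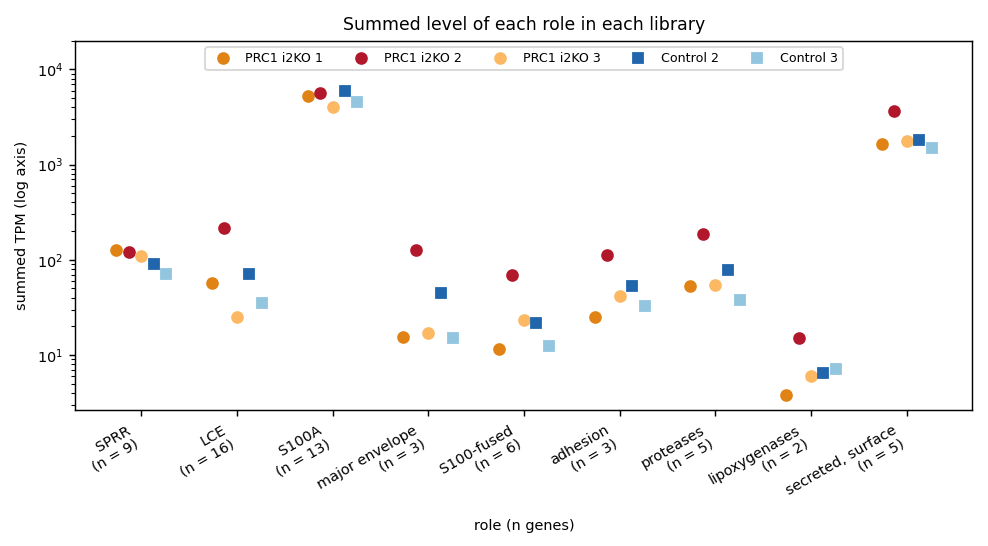
Summed TPM (log axis) of the genes of each role in each library, with the number of genes under each role; circles are the 3 PRC1 i2KO libraries and squares the 2 Control libraries. PRC1 i2KO 2 is the highest library in 7 of the 9 roles, and S100A genes hold the most TPM in all 5 libraries.

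The S100-fused proteins carry a calcium-binding S100 domain joined to long repeats, and associate with keratin filaments. Flg, which encodes the keratin-bundling profilaggrin, had 10.8, 54.0 and 23.1 CPM in PRC1 i2KO samples, against 13.7 and 10.4 CPM in Control samples. PRC1 i2KO 2 was the highest at 4.48 times the Control mean, PRC1 i2KO 3 was also above both Control libraries, and PRC1 i2KO 1 lay between them. For Flg the log2 fold change was 1.28 ± 0.589 (edgeR adjusted p = 0.477), and 0.49 without PRC1 i2KO 2. Flg shares reads with another feature in 4 of the 5 libraries, and a pseudogene overlaps it on the same strand in GENCODE M21. The 4 tested genes of this role had log2 fold changes between 0.55 and 1.28, with a median of 0.85 and adjusted p-values from 0.477 to 0.814. Tchh, trichohyalin of the inner root sheath, differed in order, since PRC1 i2KO 2 was its lowest library.

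All 3 adhesion genes were highest in PRC1 i2KO 2, as were 18.1% of all tested genes. Dsg1a, a desmosomal cadherin of the differentiated layers, had 114, 256 and 161 CPM in PRC1 i2KO samples, against 138 and 129 CPM in Control samples. PRC1 i2KO 1 was the lowest library and PRC1 i2KO 2 the highest, and the log2 fold change was 0.41 (edgeR adjusted p = 0.693). Dsc1, its partner cadherin, had 13.4, 92.7 and 38.4 CPM in PRC1 i2KO samples, against 24.1 and 19.1 CPM in Control samples. The same order held, with PRC1 i2KO 1 lowest of all and a log2 fold change of 1.16 (edgeR adjusted p = 0.570). Over the 3 adhesion genes, with corneodesmosin, the median was 1.01. The expected counts of both cadherins were not whole in any of the 5 libraries, a mark of reads shared with features that the table does not name.

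Of the 4 proteases and 1 protease inhibitor, 3 had every PRC1 i2KO library above both Control libraries in CPM, as did 14.6% of all tested genes. Casp14, a caspase of the cornifying layers that takes part in filaggrin breakdown, had 18.2, 31.9 and 22.1 CPM in PRC1 i2KO samples, against 5.06 and 10.8 CPM in Control samples. Every PRC1 i2KO library was above both Control libraries, in CPM and in TPM. Casp14 had a log2 fold change of 1.62 ± 0.433 (edgeR adjusted p = 0.224; DESeq2 0.00881) and 1.36 without PRC1 i2KO 2. Klk5 and Klk7, the kallikreins that cut corneodesmosomes, had log2 fold changes of 1.46 and 1.31 (edgeR adjusted p = 0.373 and 0.402). Klk7 had 37.9, 106 and 35.6 CPM in PRC1 i2KO samples, against 31.7 and 16.2 CPM in Control samples, so that only PRC1 i2KO 2 stood far from Control 2, and in TPM the groups overlapped. Spink5, which encodes the inhibitor of these kallikreins, had 87.5, 237 and 118 CPM in PRC1 i2KO samples, against 107 and 78.2 CPM in Control samples. Its groups overlapped through PRC1 i2KO 1, and the log2 fold change was 0.67 (edgeR adjusted p = 0.581).

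The epidermal lipoxygenases Alox12b and Aloxe3 act one after the other on ceramides of the lipid coat. Alox12b had 5.04, 27.4 and 7.94 CPM in PRC1 i2KO samples, against 5.42 and 3.25 CPM in Control samples. PRC1 i2KO 2 was 6.32 times the Control mean and PRC1 i2KO 1 lay between the Control libraries (log2 fold change 1.62 ± 0.730, edgeR adjusted p = 0.467). Aloxe3 had a log2 fold change of 0.27 from counts (edgeR adjusted p = 0.866) and of -0.52 on log2(TPM + 1), so its direction turned with the scale. It shared reads in all 5 libraries.

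Of the 5 secreted, surface and calcium-sensor markers, 2 had every PRC1 i2KO library above both Control libraries in CPM, as did 14.6% of all tested genes. Ly6d, a surface protein of stratified epithelia, had 39.6, 46.1 and 22.8 CPM in PRC1 i2KO samples, against 11.2 and 12.5 CPM in Control samples. The groups did not overlap, which is no separate result for a gene named for its small p. The mean was 36.2 ± 12 CPM in PRC1 i2KO samples and 11.8 ± 0.883 CPM in Control samples (SD, n = 3 and 2). The log2 fold change was 1.62 ± 0.353, and the gene passed DESeq2 (adjusted p = 0.000826) but not edgeR (adjusted p = 0.164). Krtdap, a small secreted protein of differentiating keratinocytes, had 201, 563 and 273 CPM in PRC1 i2KO samples, against 119 and 136 CPM in Control samples. The groups were apart in CPM, but in TPM PRC1 i2KO 1, at 584, lay below Control 2, at 617. The log2 fold change of Krtdap was 1.44 ± 0.391 (edgeR adjusted p = 0.232; DESeq2 0.0104) and 0.89 without PRC1 i2KO 2.

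Dmkn, Sbsn and Calml3 were among the 10 genes with the most TPM and their groups overlapped. Dmkn, dermokine, had 485, 527 and 360 CPM in PRC1 i2KO samples, against 342 and 385 CPM in Control samples. Sbsn, suprabasin, which lies beside Dmkn and Krtdap on chromosome 7, had 189, 396 and 170 CPM in PRC1 i2KO samples, against 253 and 202 CPM in Control samples. Calml3, a calmodulin-like calcium sensor of epithelia, had 255, 116 and 145 CPM in PRC1 i2KO samples, against 129 and 153 CPM in Control samples. The highest library was PRC1 i2KO 2 for Dmkn and Sbsn but PRC1 i2KO 1 for Calml3. Their log2 fold changes were 0.33, 0.14 and 0.29 from counts (edgeR adjusted p = 0.594, 0.925 and 0.801), and turned to -0.042, -0.0045 and -0.10 on log2(TPM + 1).

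**Figure D3:**
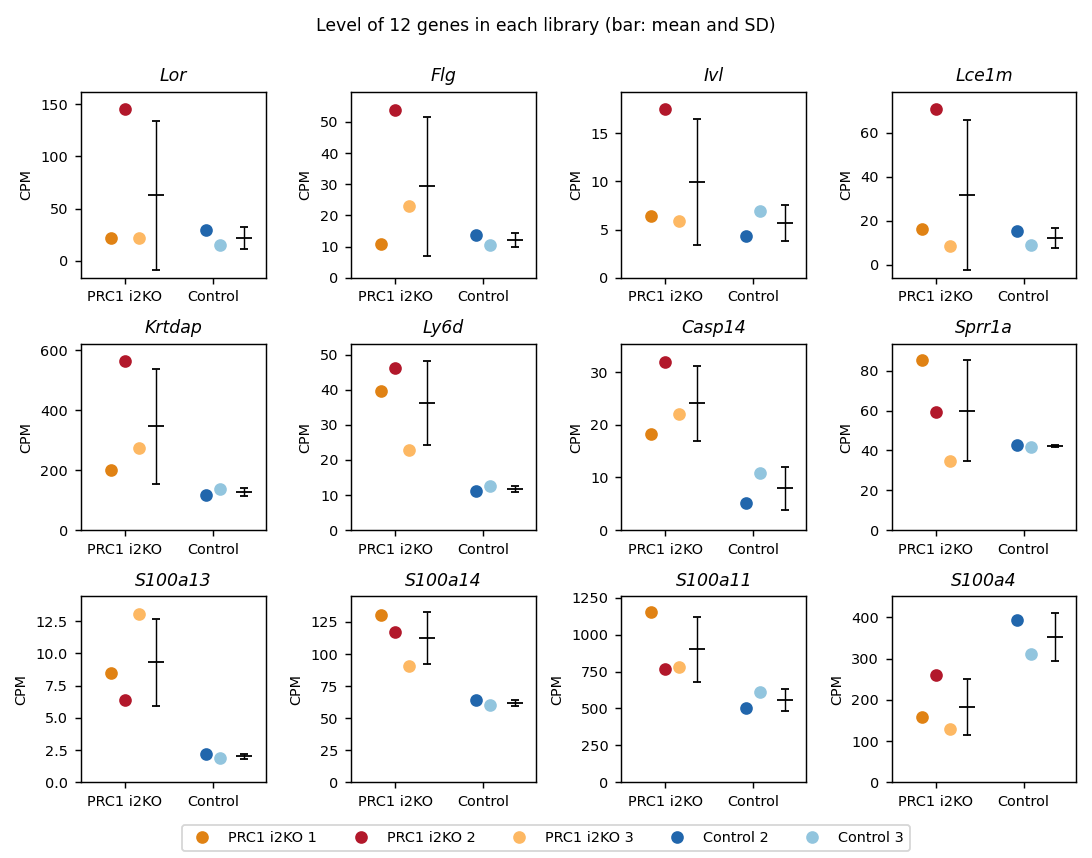
CPM of 12 genes in each library, PRC1 i2KO left and Control right, with the mean and SD of each group drawn beside the points (n = 3 and 2). For Lor and Ivl PRC1 i2KO 2 alone is above both Control libraries, for Krtdap, Ly6d, Casp14, S100a13, S100a14 and S100a11 all 3 PRC1 i2KO libraries are, and for S100a4 all 3 are below.

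The S100A genes encode small calcium-binding proteins that many cell types make. They sit in the same region of chromosome 3 and took 73.0%, 55.7% and 66.2% of the summed TPM of the 62 genes in PRC1 i2KO samples, against 72.8% and 72.7% in Control samples. Their median log2 fold change was 0.14, and 5 of the 10 tested genes were above 0 and 5 below. In 4 of the 10 (40.0%, against 14.6% of all tested genes) every PRC1 i2KO library lay above both Control libraries, and 3 were higher and 1 lower at an unadjusted p under 0.05 (30.0% and 10.0%, against 7.43% and 3.51%). Their median shift from the Control mean on log2(CPM + 1) came to 0.25, 0.28 and 0.18 for PRC1 i2KO 1, 2 and 3. The difference from the other roles was not tested. S100a13, a protein known for the release of growth factors without a signal peptide, had 8.48, 6.41 and 13 CPM in PRC1 i2KO samples, against 2.17 and 1.90 CPM in Control samples. The lowest PRC1 i2KO library was well above both Control libraries, and the log2 fold change was 2.18 ± 0.552 (edgeR adjusted p = 0.206; DESeq2 0.00107). Without PRC1 i2KO 2 it was 2.39. S100a14, an epithelial S100 protein, had 130, 117 and 90.6 CPM in PRC1 i2KO samples, against 63.9 and 60.5 CPM in Control samples. The groups were apart in CPM, and its log2 fold change was 0.86 ± 0.217 (edgeR adjusted p = 0.206; DESeq2 0.0128). In TPM the groups of S100a14 overlapped, at 124, 148 and 98 in PRC1 i2KO samples, against 101 and 70.3 in Control samples.

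S100a11, an envelope-associated S100 protein and the gene with the highest mean TPM of the 62, had 1153, 767 and 780 CPM in PRC1 i2KO samples, against 502 and 608 CPM in Control samples. Every PRC1 i2KO library was higher, PRC1 i2KO 1 most of all, with a log2 fold change of 0.70 ± 0.213 (edgeR adjusted p = 0.277). It shares reads with another feature in all 5 libraries. S100a6 had 1136, 971 and 792 CPM in PRC1 i2KO samples, against 742 and 844 CPM in Control samples, and S100a10, the partner of annexin A2, had 121, 144 and 92 CPM, against 111 and 128 CPM. The groups overlapped for both genes, with log2 fold changes of 0.29 and -0.00 (edgeR adjusted p = 0.618 and 0.998), and the sign for S100a10 turned with DESeq2 size factors.

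S100a4, a motility-associated S100 protein also known as a fibroblast marker, ran the other way. It had 158, 260 and 130 CPM in PRC1 i2KO samples, against 394 and 311 CPM in Control samples. Every PRC1 i2KO library was below both Control libraries, in CPM and in TPM. The log2 fold change was -0.95 ± 0.278 (edgeR adjusted p = 0.259; DESeq2 0.0696), and -1.29 without PRC1 i2KO 2, with an edgeR adjusted p of 0.0601. Of 10 fibroblast markers 8 were in the table. Their summed CPM was 154, 128 and 118 in PRC1 i2KO samples, against 77.2 and 73.6 in Control samples. Fbln1 weighs heavily in this sum, at 96.7, 61.8 and 69.9 CPM, against 53.0 and 52.3 CPM. All 4 tested markers had a log2 fold change above 0, with a median of 1.28. Of the 4, 2 were higher at an unadjusted edgeR p under 0.05, against 7.43% of all tested genes. Col1a2 stood at 0.16 and its groups overlapped. Mfap5, too low to test, was lower in every PRC1 i2KO library. The part of fibroblasts in the level of S100a4 was not tested. S100a8 and S100a9, known from neutrophils and stressed epidermis, were too low to test. S100a8 had 0, 0 and 1 counts in PRC1 i2KO samples, against 1 and 3 in Control samples, and S100a9 had 0, 7 and 75 counts, against 2 and 0.

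**Figure D4:**
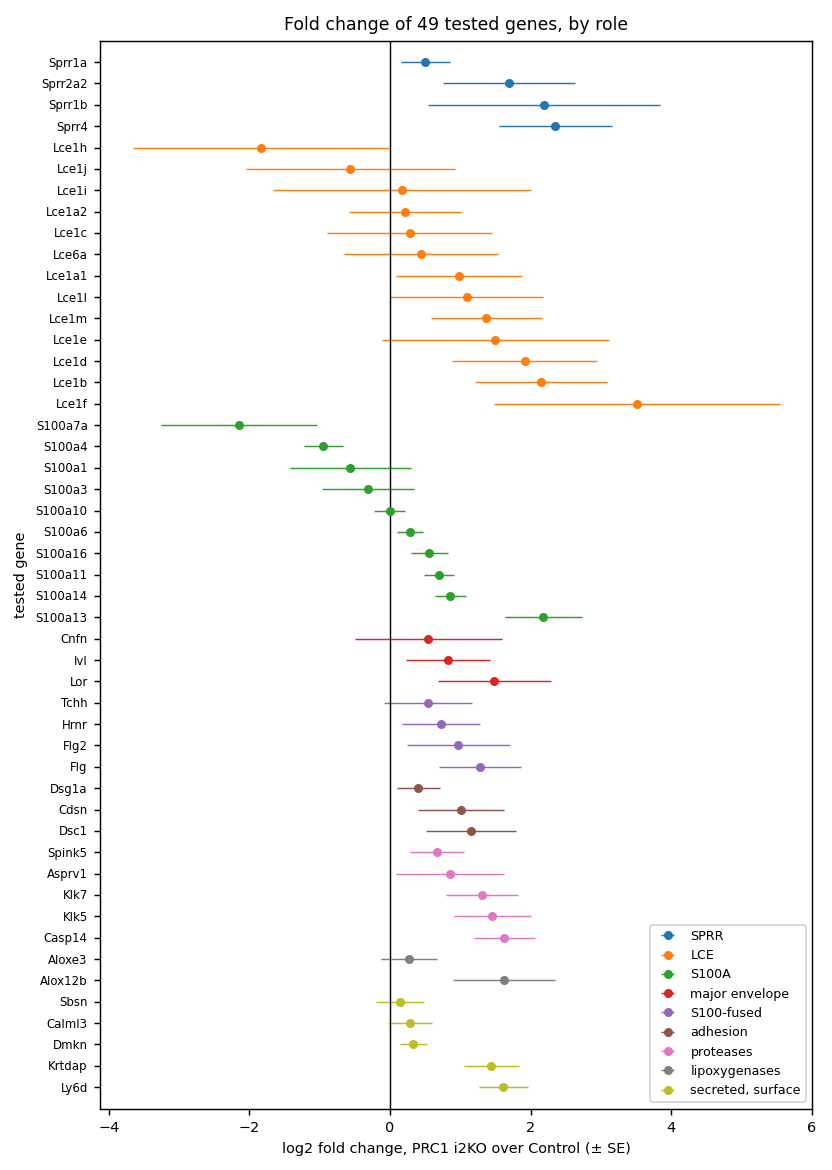
Log2 fold change of the 49 tested genes, PRC1 i2KO over Control, with the SE of the edgeR fit as a bar, grouped and coloured by role. Points right of 0 make up 42 of the 49, and of the 7 points left of it 5 are S100A genes and 2 are LCE genes; the S100a10 point lies at -0.00.

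The genes of the module spread more between PRC1 i2KO samples than the median gene. Among tested genes with a mean of at least 10 CPM, the median SD of log2(CPM + 1) over the 3 PRC1 i2KO libraries was 0.650 for 24 genes of the module and 0.274 for all 8922 genes. For the 6 S100A genes among the 24 it was 0.327. The 2 Control libraries differed too, with a median of 0.21 for Control 2 minus Control 3 over the 24 genes, against 0.039 over all. Without PRC1 i2KO 2, 44 of the 62 genes could be tested, the median log2 fold change was 0.24 against -0.012 for all genes, and 28 of the 44 were above 0. The edgeR test then gave 0 at the adjusted threshold, 8 higher and 3 lower at an unadjusted p under 0.05 (7.63% and 4.35% of all genes tested). Without PRC1 i2KO 1 or 3 the median was 1.03 or 0.99.

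**Figure D5:**
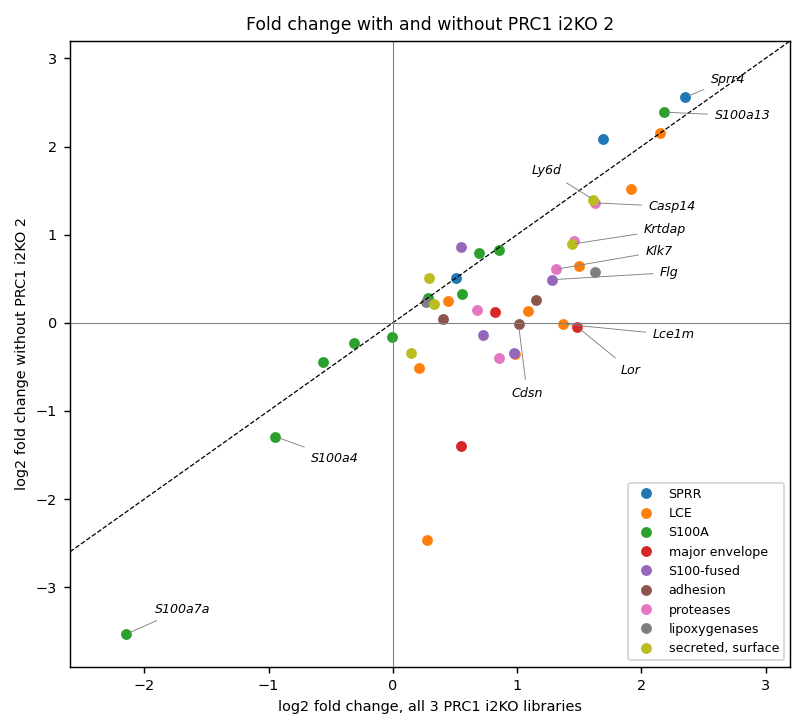
Log2 fold change of the 44 genes that could be tested both ways, with all 3 PRC1 i2KO libraries (x axis) and without PRC1 i2KO 2 (y axis), coloured by role; the dashed line marks equal values. Sprr4, S100a13 and Ly6d stay near the line, while Lor lies at -0.047 and Lce1m at -0.014 without PRC1 i2KO 2.

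The partners of the envelope genes were read from 81 further genes of the pathway, of which 80 were in the table and 77 were tested. Of the 77, edgeR called 0 at the adjusted threshold, and at an unadjusted p under 0.05 it gave 20 higher and 3 lower, where 7.43% and 3.51% of all tested genes were. Their median log2 fold change was 0.51, and 64 were above 0, where 50.4% of all tested genes were. The 6 suprabasal keratins, which replace the basal keratins as cells differentiate, were all above 0, and their summed CPM was 1005, 2878 and 1596 in PRC1 i2KO samples, against 978 and 1007 in Control samples. Krt1 was 92.2, 296 and 345 CPM in PRC1 i2KO samples, against 66.4 and 94.4 CPM in Control samples. Krt10, its partner, was 250, 1079 and 505 CPM in PRC1 i2KO samples, against 330 and 318 CPM in Control samples. For both keratins PRC1 i2KO 2 and 3 were above both Control libraries and PRC1 i2KO 1 was not.

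Over the 77 tested pathway genes, every PRC1 i2KO library lay above both Control libraries in 25 and below both in 6. Of all tested genes, 14.6% and 15.3% did so. The pathway genes reported next were picked for the smallest p-values, so groups that do not overlap are no separate result for them. Tgm5, a transglutaminase that joins envelope precursors, had 334, 302 and 340 CPM in PRC1 i2KO samples, against 634 and 582 CPM in Control samples. Its 3 PRC1 i2KO libraries lay close together and below both Control libraries, with a log2 fold change of -0.90 ± 0.149 (edgeR adjusted p = 0.0836). Pkp1, a desmosomal plaque protein, had 307, 308 and 362 CPM in PRC1 i2KO samples, against 122 and 199 CPM in Control samples (log2 fold change 1.02, edgeR adjusted p = 0.172). Elovl4, which lengthens the fatty acids of barrier ceramides, had 39.9, 65.8 and 59.1 CPM in PRC1 i2KO samples, against 27.2 and 13.9 CPM in Control samples. Klk8, a kallikrein, had 4.17, 7.65 and 2.37 CPM in PRC1 i2KO samples, against 0.0609 and 0.397 CPM in Control samples. The log2 fold changes of Elovl4 and Klk8 were 1.41 ± 0.352 and 4.60 ± 1.10 (edgeR adjusted p = 0.203 and 0.188). Klk8 had only 3 and 5 counts in Control 2 and 3, so the size of its change is uncertain.

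Markers of other keratinocyte populations moved with some of these genes, and their part in the results was not tested. For the counts below, 50.4% of all tested genes had a log2 fold change above 0. Ly6a, which encodes the Sca1 antigen gated against in the sort, had 3.12, 4.78 and 4.93 CPM in PRC1 i2KO samples, against 1.62 and 0.793 CPM in Control samples. Of 8 markers of the upper follicle and infundibulum 7 had a log2 fold change above 0, and their summed CPM was 1245, 765 and 818 in PRC1 i2KO samples, against 510 and 662 in Control samples. None of the 8 was at 0 in any library. PRC1 i2KO 1 was highest for Krt79, at 209, 36.9 and 63.2 CPM in PRC1 i2KO samples, against 8.79 and 48.9 CPM in Control samples. It was also highest for Cst6, a cystatin of the cornified layers and infundibulum, at 116, 47.3 and 27.8 CPM, against 14.3 and 18.1 CPM. Of the 49 tested genes of the module, PRC1 i2KO 1 was the highest library in 6 (12.2%, against 23.6% of all tested genes). These were Sprr1a, Lce1b, Calml3, S100a6, S100a11 and S100a14. Krt17, listed for the upper follicle and for activated keratinocytes, had 458, 301 and 368 CPM in PRC1 i2KO samples, against 132 and 167 CPM in Control samples. Over the 4 activated keratinocyte markers the median log2 fold change was 1.13, and 3 lay above 0. Krt14, a basal keratin, had 1322, 1431 and 971 CPM in PRC1 i2KO samples, against 695 and 832 CPM in Control samples, and 4 of the 7 basal epidermis markers were above 0. Of 9 tested sebocyte markers 7 were above 0 and 4 were higher at an unadjusted edgeR p under 0.05, against 7.43% of all tested genes. Awat2 and Mgst1 were below 0, at -1.12 and -0.11. The sebocyte markers summed to 192, 181 and 228 CPM in PRC1 i2KO samples, against 142 and 106 CPM in Control samples. All 6 tested inner root sheath and companion layer markers, Tchh among them, were above 0, with sums of 14.8, 19.5 and 18 CPM in PRC1 i2KO samples, against 7.98 and 6.27 CPM in Control samples. Of the 12 bulge stem cell markers 2 had a log2 fold change above 0, and edgeR called 0 at the adjusted threshold. At an unadjusted p under 0.05 edgeR gave 3 lower and 0 higher, against 3.51% and 7.43% of all tested genes. The 3 were Cd34, Lgr5 and Lhx2, each below both Control libraries in every PRC1 i2KO library. Lgr5 had 322, 315 and 382 CPM in PRC1 i2KO samples, against 449 and 471 CPM in Control samples. Lhx2 had 508, 559 and 409 CPM in PRC1 i2KO samples, against 659 and 718 CPM in Control samples. The 12 bulge markers together, a sum in which Krt15 weighs heavily, did not set the groups apart, since their summed CPM was 10993, 11878 and 9879 in PRC1 i2KO samples, against 11938 and 11751 in Control samples. The 6 neutrophil markers in the table, of 11 listed, summed to at most 3.76 CPM in any library, with S100a8 and S100a9 counted among them.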

How the data were processed

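Polyadenylated RNA of 5 samples, 3 PRC1 i2KO and 2 Control, was analysed from 1 deposited table with 30840 features. The authors deposited an expected count, which is an estimate that need not be whole (61.5% were not), and a TPM value for each feature and sample. TPM, in the deposited form, divides by transcript length and added up to 999963 to 999978 in each sample. Per the submitters' processing notes the tools were RSEM 1.3.3, STAR 2.7.9a and DESeq2 1.38.2, for build mm39, with no roles given, and the strand setting and annotation are not given in the sources used here. Per the labels' protocols, 50 ng of RNA per sample entered library preparation.

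Expected counts were rounded and tested by the quasi-likelihood test of edgeR 4.0.16 under R 4.3.3 (TMM scaling, filterByExpr, group as the only term, all 5 libraries, Benjamini-Hochberg adjustment over 22181 genes, threshold 0.05). The tests were first run on simulated counts with known changes. DESeq2 1.42.0, limma 3.58.1 on log2(TPM + 1) and log2(TPM + 0.1), DESeq2 size factors, no filter, protein-coding features only, each library left out and 2 replicate blocks were alternatives. CPM used TMM-scaled library sizes, where 1 count was worth 0.0203 to 0.0793 CPM. The expected count was called whole within 0.01, and 27 of the 62 genes had a value that was not whole in at least 1 library. In GENCODE M21, 7 genes overlap another gene on the same strand and 2 on the other strand only, and 62 of 62 matched.

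The genes and lists were chosen with earlier results of these data known. Genes named by rule were the 8 with the smallest p, the 10 with the highest mean TPM, the gene with the highest mean TPM in each role, Lor, Ivl, Flg, Krtdap and Casp14, and 6 pathway genes with the smallest p, of which 1 is not reported here. That gave 21 genes, and 41 are given by range and count or named after their values were seen. Sample titles number the Control samples 2 and 3 and descriptions 1 and 2. Same-numbered samples by title had deviations correlated at 0.0645 and 0.0409. With 2 Control samples their deviations mirror each other, so this check cannot decide pairing. The numbers were not taken to pair samples. Promoter windows came from RefSeq on GRCm38.p6.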

Additional observations from a re-analysis of the deposited data

How the results depend on the processing

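The median log2 fold change was 0.82 over the 49 tested genes and above 0 under all alternatives run, each over the genes it could test, from 0.24 without PRC1 i2KO 2 (44 genes) to 1.34 without Control 2 (55 genes). It was 0.83 with DESeq2 size factors, 1.01 with no filter and 1.00 with DESeq2 (62 genes each for the last 2), 0.73 with protein-coding features only, and 0.25 and 0.26 with limma on log2(TPM + 1) and log2(TPM + 0.1), where the median of all genes was itself -0.19 and -0.33. The 28 genes of the whole table called higher and 0 called lower became 140 and 12 with no filter, 745 and 163 with DESeq2, 2 and 1 with limma on log2(TPM + 1), 7 and 5 on log2(TPM + 0.1), and 54 and 6 with protein-coding features only. With 1 library left out, 4 to 39 genes were called higher (39 without PRC1 i2KO 2, 4 without Control 2) and 0 to 4 lower (4 without PRC1 i2KO 2). Of the terminal differentiation genes, DESeq2 called 7 higher and the other alternatives 0, except for the replicate block by title number. The numbers are not known to pair the samples, so a block on them is not read as a stronger effect. By title PRC1 i2KO 1 has no same-numbered Control sample, so that comparison rests on PRC1 i2KO 2 and 3. The block by title gave 140 genes higher and 25 lower. It gave 3 genes of the module higher (Krtdap, Klk7 and Dsc1, edgeR adjusted p = 0.0126, 0.0271 and 0.0446). By description number PRC1 i2KO 3 has no same-numbered Control sample, and the block gave 10 genes higher and 0 of the module. No terminal differentiation gene was called lower under any alternative run. Over 55 genes and 715 values, 20 turned direction and 35 newly passed the threshold, and since no named gene passed it with edgeR on all libraries, no call could be lost. The log2 fold change of S100a10 (-0.00) was 0.0041 with DESeq2 size factors, 0.011 with no filter, 0.0094 with DESeq2, 0.15 with the replicate block by description, 0.15 without PRC1 i2KO 3 and 0.11 without Control 3, and -0.17 without PRC1 i2KO 2 was its lowest value with 1 library left out. On the 2 TPM scales Dmkn was -0.042 and -0.042, Sbsn -0.0045 and -0.0046, Calml3 -0.10 and -0.10, and Aloxe3 -0.52 and -0.64. Calml3 was also -0.11 without PRC1 i2KO 1 and -0.12 with the block by title, and without PRC1 i2KO 2 Sbsn was -0.35, Tgm1 -0.31, Lce1m -0.014 and Lor -0.047. The highest values with 1 library left out were 0.36 for Sbsn, 1.24 for Tgm1, 0.50 for Calml3, 1.82 for Lce1m and 2.07 for Lor. The cause of these turns was not tested. Control 3, with 11626006 counts, limits what low genes can show, since 1 count there was 0.0793 CPM.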

Other observations

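The barrier lipid enzymes and the transcription factors of keratinocyte differentiation lay mostly above 0 as well, and 0 of either list passed edgeR at the adjusted threshold. Of 18 tested barrier lipid genes 17 had a log2 fold change above 0, with a median of 0.74, and 4 were higher at an unadjusted p under 0.05, where 7.43% of all tested genes were. Acer1, a ceramidase of differentiating keratinocytes, had 7.19, 9.11 and 7.53 CPM in PRC1 i2KO samples, against 1.79 and 3.17 CPM in Control samples. Its PRC1 i2KO libraries were close together and above both Control libraries (log2 fold change 1.70, edgeR adjusted p = 0.297; DESeq2 0.0135). Sdr9c7, an oxidoreductase of the same lipid pathway as the lipoxygenases, had 7.93, 26.0 and 7.72 CPM in PRC1 i2KO samples, against 5.30 and 2.78 CPM in Control samples, with PRC1 i2KO 2 again the highest. These genes, and those of the next paragraph, were named after their values were seen.

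Of 20 transcription factors 17 had a log2 fold change above 0, with a median of 0.38, and 6 were higher and 2 lower at an unadjusted p under 0.05 (30% and 10%, against 7.43% and 3.51% of all tested genes). Grhl3, a grainyhead factor of barrier formation, had 18.7, 28.9 and 8.76 CPM in PRC1 i2KO samples, against 5.64 and 7.38 CPM in Control samples. Zfp750, a factor that acts in terminal differentiation, had 47.2, 80.1 and 44.2 CPM in PRC1 i2KO samples, against 35.9 and 33.2 CPM in Control samples. Both were highest in PRC1 i2KO 2 and above both Control libraries in every PRC1 i2KO library. Klf4, a factor needed for the skin barrier, ran the other way with 702, 662 and 633 CPM in PRC1 i2KO samples, against 948 and 845 CPM in Control samples. Maf, a transcription factor of the leucine zipper class, had 209, 213 and 141 CPM in PRC1 i2KO samples, against 267 and 265 CPM in Control samples. For Klf4 and Maf every PRC1 i2KO library was below both Control libraries (log2 fold changes -0.43 and -0.51, edgeR adjusted p = 0.321 and 0.425). Tgm1, the main transglutaminase of the epidermal envelope, had 3.02, 9.07 and 2.5 CPM in PRC1 i2KO samples, against 4.71 and 2.06 CPM in Control samples, and only PRC1 i2KO 2 was outside the Control range.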
